A study of Mus musculus with 20 samples.

Results

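The response of wild type (WT) mouse liver to CDAHFD, a diet high in fat that lacks choline, is low in methionine and has defined L-amino acids as its protein source, was measured across 13587 genes, of 38924 in the RNA-seq table. A gene was included when its FPKM (fragments per kilobase of gene, scaled to the total of assigned fragments) exceeded 0.5 in at least 5 of the 10 WT libraries. The groups were 5 male WT mice on control diet (NDWT) and 5 male WT mice on CDAHFD (HFWT), each kept on its diet for 12 weeks, with 1 library per mouse on a background that the series names C57/BL6 and the methods C57BL/6J. Both groups carried the unmodified Thbs1 gene for thrombospondin 1 (TSP-1), and the other 10 libraries of the study, from mice labelled TSP-1 null on the same diets, were used only to ask whether a diet response differed with genotype. The comparison covers all that differs between the control diet and CDAHFD, methionine and fat included, and not choline alone. RNA came from a piece of 1 liver lobe, which the series names as the right medial and the methods as the right lateral lobe.

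Choline is a building block of phosphatidylcholine, the membrane lipid that coats very low density lipoprotein (VLDL), the particle in which hepatocytes export triglyceride. Rodents fed without choline and with much fat store triglyceride in their hepatocytes, and inflammation and scarring follow, so the diet is used as a model of steatohepatitis with fibrosis. Hepatocytes provide most liver RNA, Kupffer cells are the resident macrophages, stellate cells store vitamin A and become matrix-forming myofibroblasts after injury, and cholangiocytes line the bile ducts.

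The 10 WT libraries held 16689108 to 23276322 fragments assigned to genes. A differentially expressed gene (DEG) had an FDR under 0.05 (limma on log2(FPKM + 0.1), two-sided, Benjamini-Hochberg over the 13587 genes) and an absolute log2FC above 0.58. Values are means ± SD in FPKM over 5 mice, errors of log2FC are standard errors, and a positive log2FC is higher on CDAHFD. Libraries of 1 group are separate mice, and the chi-square per degree of freedom between any pair of them was at least 16.4, so none was a copy. The HFWT library of replicate 5 stood apart: 5.56% of its fragments fell on 4 RNAs outside the poly(A) messengers (Gm26924, Gm23935, Rn7sk and Rpph1), against 0.379% to 1.44% in the other 9 libraries. Without it 6790 genes were DEGs, against 6592 with it. Thbs1 was at 0.17, 0.326, 0.268, 0.058 and 0.165 FPKM in NDWT and at 5.77, 6.099, 3.46, 3.91 and 3.86 FPKM in HFWT, so the transcript was present in every WT library and higher on CDAHFD (log2FC 4.03 ± 0.27, FDR 1.56e-07). The libraries labelled TSP-1 null also held Thbs1 fragments, 0.986 to 1.90 FPKM on control diet, above the NDWT range. A value for the whole gene cannot show whether its deleted part was absent, so the genotype label was not checked.

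**Figure D1:**
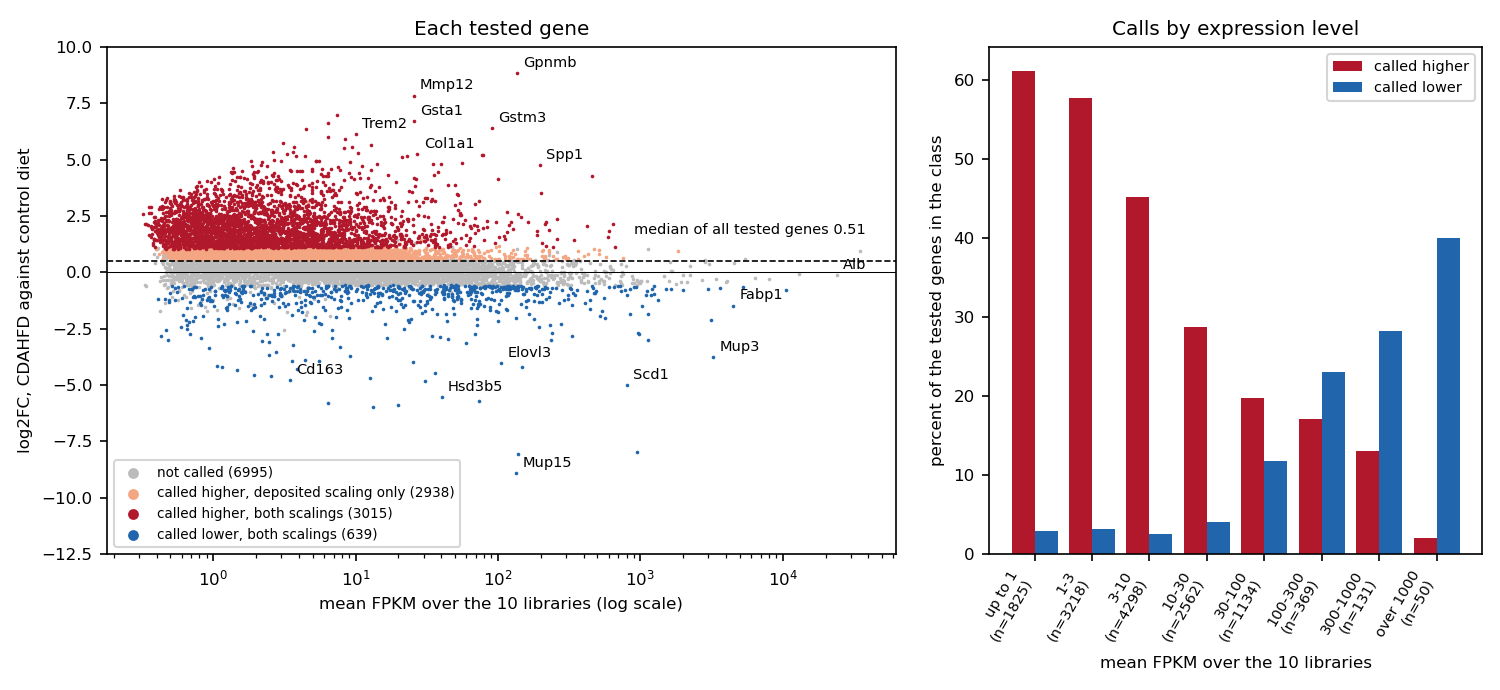
Left, each of the 13587 tested genes by its mean FPKM over the 10 WT libraries (log axis) and its log2FC, CDAHFD against control diet, coloured by call, with the median of all tested genes at 0.51 as a dashed line. Right, the percent of tested genes called higher and lower in 8 classes of mean FPKM; the share called higher falls from 61.1% to 2% and the share called lower rises from 2.90% to 40% toward the most abundant genes.

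CDAHFD moved close to every other gene that the liver expressed. Of 13587 genes, 5953 (43.8%) rose and 639 (4.70%) fell, together 6592 (48.5%). FPKM are shares of a fixed total, and the median log2FC of all tested genes was 0.51, so this split depends on the scaling. After median of ratios scaling, which sets that median to 0.00 (a shift of -0.51), 3015 genes were called higher and 2057 lower, and after quantile normalization 2387 and 2393. Genes called in the same direction with the deposited values and with median of ratios scaling numbered 3015 higher (22.2%) and 639 lower (4.70%), and these calls are named "with both scalings". Since median of ratios scaling moved log2FC downward, calls of lower genes could hardly be lost, and both scalings together check the higher calls only. Counts of list members called lower after median of ratios scaling are to be read against the 2057 of 13587 genes. Those with the deposited values are to be read against 43.8% higher and 4.70% lower. Quantile normalization kept 2965 of the 6592 calls in the same direction and called 32 in the opposite one. Values of the 5 mice on each diet did not overlap for 7812 genes (57.5%). Large differences were mostly increases, with 410 genes over 8-fold higher and 37 over 8-fold lower. At the extremes, 26 genes were more than 32-fold higher and 9 more than 32-fold lower.

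The direction of change followed the abundance of the transcript. Among 1825 genes with a mean of at most 1 FPKM, 61.1% rose and 2.90% fell, while among the 50 genes over 1000 FPKM, 1 rose and 20 (40%) fell, as the plot of calls by expression level shows. The filter bears on the low end, since it admitted 930 genes that exceeded 0.5 FPKM in all 5 HFWT libraries and in no NDWT library, of which 928 were called higher, and 19 genes through NDWT alone, all called lower. Those genes had to differ, and the 10930 genes above the limit in all 10 libraries, which were not selected in that way, gave 4109 higher and 536 lower. At the limit itself, Gpr176 (an orphan receptor), with 5 libraries over 0.5 FPKM and a mean of 0.321 FPKM, was the lowest gene inside. The 499 genes with 4 libraries over it, just outside, had a median mean of 0.452 FPKM against 0.679 FPKM for the 1131 genes with 5.

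Fragments were spread over more genes on CDAHFD. The number of genes above 0.5 FPKM was 12180 ± 137 in NDWT and 14274 ± 151 in HFWT, and the lowest HFWT library was above the highest NDWT library (adjusted p = 0.0127, two-sided exact permutation test, Benjamini-Hochberg over 8 measures of library make-up). The 100 most abundant genes took 41.0% ± 1.11 of the fragments in NDWT and 32.8% ± 2.61 in HFWT (adjusted p = 0.0127, same exact test), and it took 174 to 220 genes to hold 50% of the fragments in NDWT against 355 to 576 in HFWT. The 10 most abundant genes showed no detectable difference (15.2% ± 0.523 and 14.4% ± 2.33, adjusted p = 0.524, exact test), a value that turns on HFWT replicate 5, whose 18.2% was the highest of all. Without that library the HFWT mean was 13.5% and the adjusted p 0.0363 in the same exact test. The raw p cannot fall below 0.00794 with 5 mice per group.

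**Figure D2:**
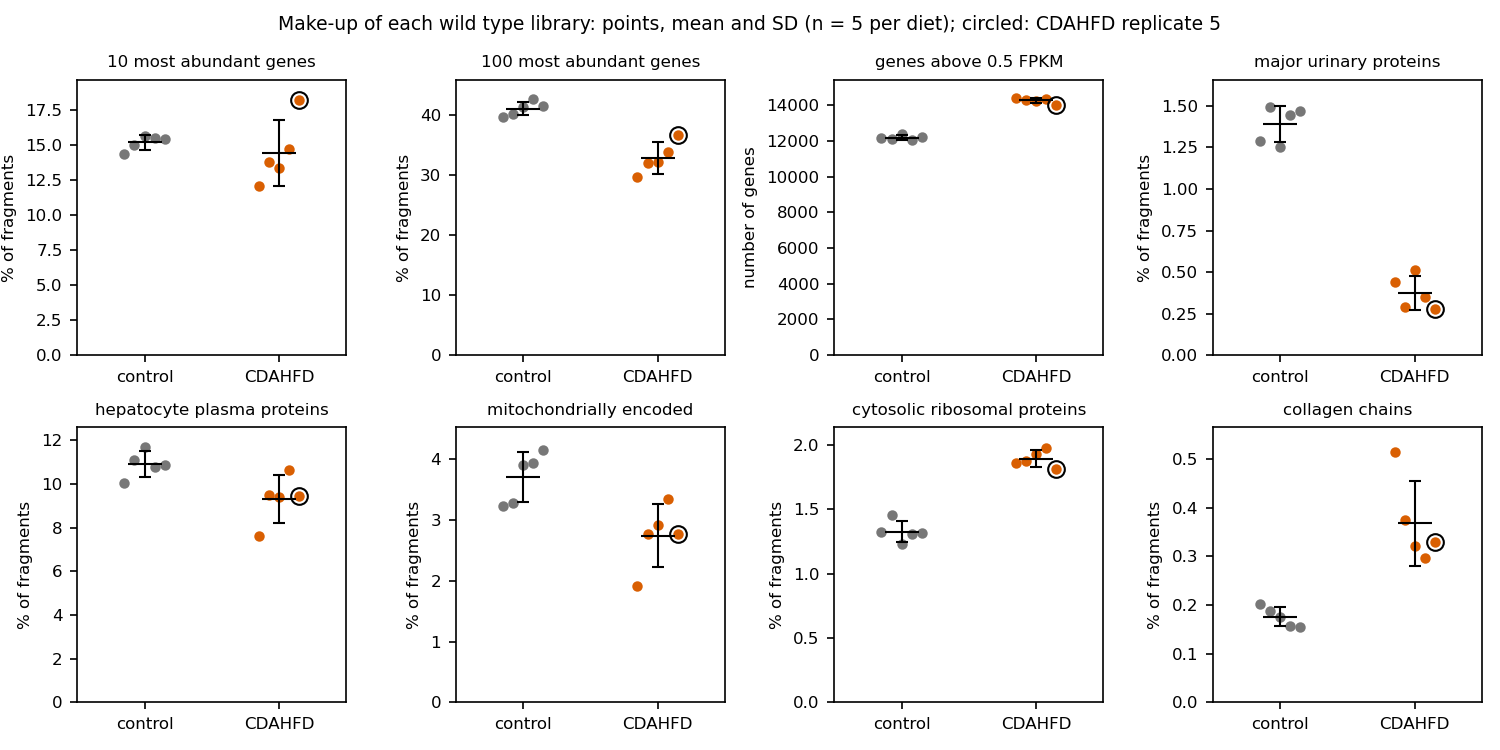
Percent of fragments on gene groups, and number of genes above 0.5 FPKM, in each of the 5 NDWT (grey) and 5 HFWT (orange) libraries, with mean and SD; HFWT replicate 5 is circled. The groups separate in the panels for the 100 most abundant genes, genes above 0.5 FPKM, major urinary proteins, ribosomal proteins and collagen chains, and overlap in the other 3.

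The same measures gave the make-up of the transcriptome by class. Major urinary proteins fell from 1.39% to 0.374% of fragments and hepatocyte plasma proteins from 10.9% to 9.32% (adjusted p = 0.0127 and 0.0212, exact permutation tests). Transcripts of the mitochondrial genome went from 3.70% to 2.74% (adjusted p = 0.0272, exact permutation test). This call was lost, with an adjusted p of 0.0544 in the same exact test, without any 1 of NDWT replicates 3, 4 and 5 or HFWT replicates 1, 2 and 3. Cytosolic ribosomal proteins rose from 1.33% to 1.89% and collagen chains from 0.176% to 0.367% of fragments (adjusted p = 0.0127 for each, exact permutation tests). Of the 10 genes that held most fragments (Alb, Apoe, mt-Co1, C3, Gm26924, Apoa1, Cyp2e1, Apob, Ahsg and mt-Cytb), only mt-Cytb was a DEG with the deposited values and was lower (log2FC -0.67 ± 0.17, FDR 0.0043). After median of ratios scaling 7 of the 10 were called lower, all but C3, Gm26924 and Ahsg. Gm26924, 1 of the 4 RNAs that set HFWT replicate 5 apart, is not a poly(A) messenger. Alb, albumin and the defining hepatocyte messenger, was at 21280.1, 23948, 29238, 24933 and 25859 FPKM in NDWT and 16870.4, 23672, 23588, 25879.8 and 24973 FPKM in HFWT, and these groups overlapped (log2FC -0.13 ± 0.15, FDR 0.438, and a log2FC of -0.66 with an FDR of 0.00696 after median of ratios scaling). In tissue RNA of this kind, fewer cells of a type and less RNA per cell cannot be told apart.

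The 15 genes that rose most, among those called with both scalings and without overlap, were led by macrophage and matrix-degrading genes. Of them, Mmp12, Mmp7, Vsig8, Trem2, Clec4d, Adam8, Emp1, Meg3, Trbd1 and mmu-mir-6358 passed the filter through HFWT alone and so had to differ. Gpnmb (ENSMUSG00000029816.8, chromosome 6, 49036518 to 49058182, plus strand on GRCm38), a transmembrane glycoprotein of lipid-loaded macrophages, was at 0.577, 0.331, 0.518, 0.384 and 0.66 FPKM in NDWT and 295, 288, 294, 255 and 220.1 FPKM in HFWT. All 5 mice on CDAHFD were thus far above all 5 controls, with a log2FC of 8.85 ± 0.15 (FDR 1.78e-11). Mmp12, macrophage elastase, was at 0.148, 0.075, 0.21, 0.048 and 0.166 FPKM in NDWT and 43.6, 51.4, 58.4, 48.2 and 53.6 in HFWT (log2FC 7.85 ± 0.19, FDR 1.84e-10). Mmp7 (matrilysin) was at or under 3 fragments in every NDWT library, and its HFWT mean of 12.7 ± 5.77 FPKM was at least 84.5-fold higher than a floor of 3 fragments per library. Vsig8, an immunoglobulin domain gene, was at least 105-fold higher by the same floor. Trem2, the lipid-sensing receptor of macrophages, was at 0.243, 0.182, 0.148, 0.189 and 0.152 FPKM in NDWT and 21.6, 17.5, 20.5, 23.2 and 16.96 in HFWT (log2FC 6.15 ± 0.12, FDR 5.12e-11).

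The same 15 held the C-type lectin Clec4d (log2FC 6.02), the metalloprotease Adam8 (5.93) and the integrin Itgax (5.65), all genes of myeloid cells. They held the glutathione transferases Gsta1 (6.72) and Gstm3 (6.41), the epithelial membrane genes Emp1 (5.56) and Tspan8 (5.51), and the imprinted noncoding RNA Meg3 (5.55). Gsta1 was at 0.764, 0.689, 0.176, 0.305 and 0.21 FPKM in NDWT and 69.1, 45.6, 51.2, 50.03 and 37.9 in HFWT, with no overlap. The other 2 of the 15, the T cell receptor segment Trbd1 and the microRNA precursor mmu-mir-6358, rested on 1 to 7 and 3 to 17 fragments per HFWT library and on none in NDWT, so no fold is given for them.

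Of the 15 genes that fell most, 9 were major urinary protein (Mup) genes or pseudogenes, which encode pheromone carriers made by the liver of male mice. Mup15 was at 302, 314, 257, 269.9 and 197 FPKM in NDWT and 0.241, 0.402, 1.28, 0.054 and 1.19 in HFWT (log2FC -8.93 ± 0.51, FDR 5.75e-08), and Mup7 at 1732, 2286, 1629, 2027 and 1750.4 and 5.83, 2.98, 10.2, 12.1 and 9.24 FPKM (log2FC -7.99 ± 0.31, FDR 4.45e-09). No HFWT mouse came near the lowest control for either. Mup genes are near-identical in sequence, so how fragments were shared among single members is uncertain, and the sum over the family is the safer value. Of the other 6, Scd1 (ENSMUSG00000037071.2, chromosome 19, 44394451 to 44407709, minus strand), the stearoyl-CoA desaturase that makes monounsaturated fatty acids, was at 1759.8, 1652, 1880.0, 948 and 1569.7 FPKM in NDWT and 48.6, 33.3, 36.4, 69.4 and 57.7 FPKM in HFWT (log2FC -5.00 ± 0.23, FDR 1.1e-08). The remainder were the male-biased steroid enzyme Hsd3b5 (-5.54 ± 0.70), the monooxygenase Moxd1 (-5.80 ± 0.56), the scavenger receptor Cd163 of resident macrophages (-4.79 ± 0.21), the serpin pseudogene Serpina4-ps1 (-4.82 ± 0.81) and the interferon-inducible GTPase Gbp2b (-4.56 ± 0.35). Serpina4-ps1 varied widely among controls, from 5.57 to 245 FPKM.

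**Figure D3:**
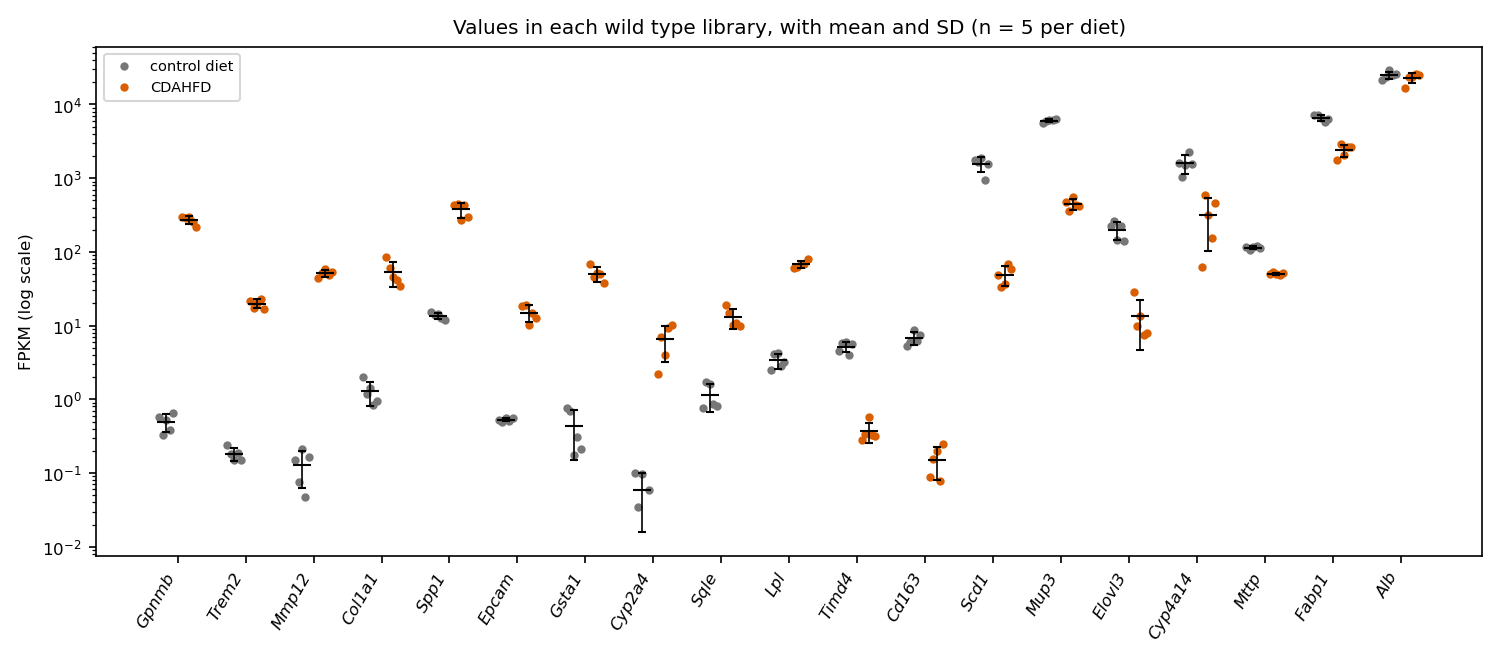
FPKM (log axis) of 19 named genes in each of the 5 NDWT (grey) and 5 HFWT (orange) libraries, with mean and SD. The diets overlap for Alb and for no other gene shown; 1 NDWT library at 0 FPKM of Cyp2a4 is not drawn on the log axis.

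Of the 54 gene lists, 28 had a median log2FC above that of all genes and 26 below it, as the plot of list medians shows. Lists of lipid-associated macrophages, bile ducts and fetal liver stood at one end, followed by chemokines, neutrophils and matrix. Lists of urinary proteins, male-biased genes and fatty acid oxidation stood at the other. The Kupffer cell list lay 0.88 below the median of all genes.

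**Figure D4:**
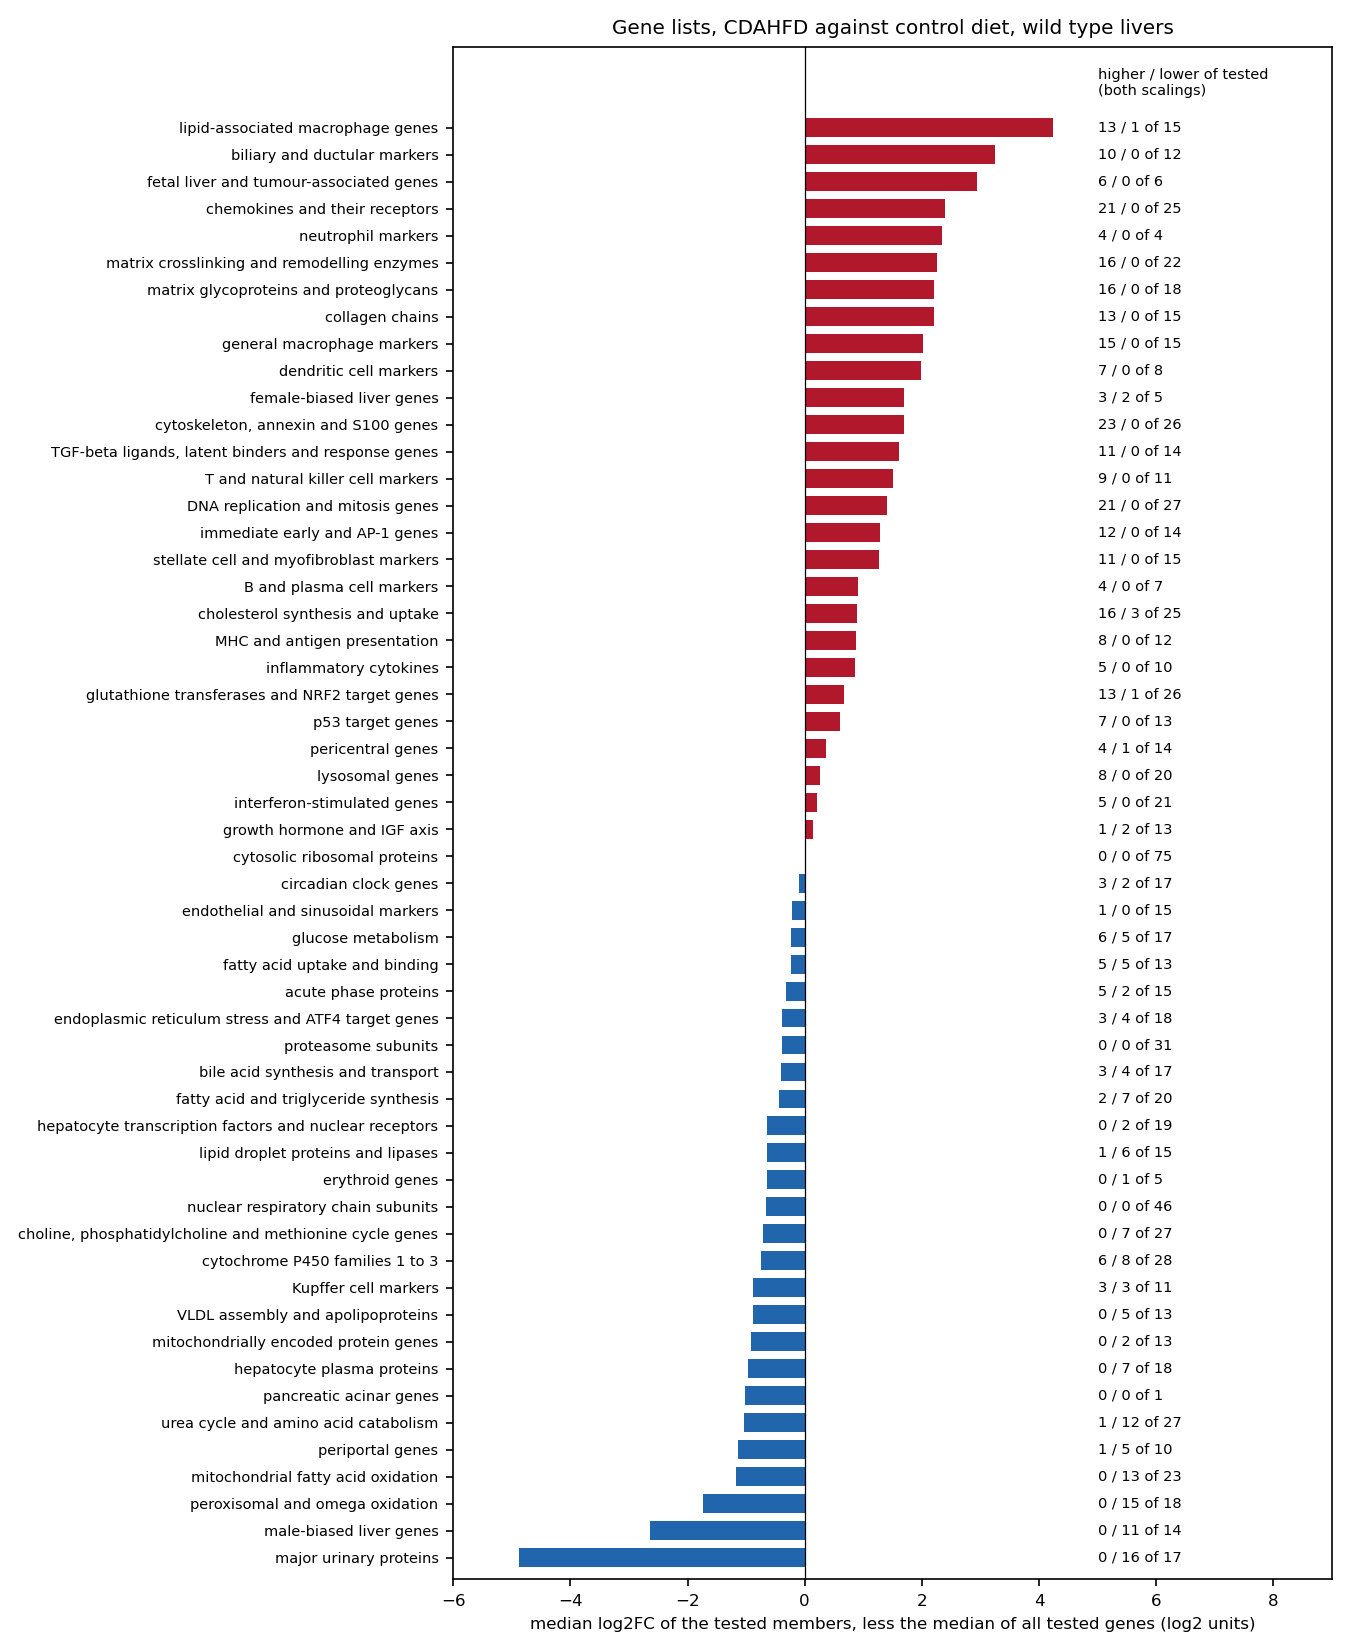
Median log2FC of the tested members of 54 gene lists, less the median of all tested genes, with the number of members called higher and lower with both scalings out of those tested at the right. Lipid-associated macrophage genes lie highest at 4.25 and major urinary proteins lowest at -4.87.

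Genes of the extracellular matrix rose as a group. Of 15 collagen chains tested (17 listed), 13 rose, all with both scalings, and none fell, and the median log2FC was 2.71 against 0.51 over all genes. Col1a1, the main chain of the fibrillar collagen of scars, was at 1.997, 1.19, 1.404, 0.835 and 0.962 FPKM in NDWT and 84.5, 59.7, 44.99, 42.1 and 34.1 FPKM in HFWT. Every CDAHFD liver was far above every control (log2FC 5.26 ± 0.26, FDR 2.1e-08). Col3a1 went from 3.14 ± 0.723 to 72.6 ± 24.2 FPKM (log2FC 4.46) and Col1a2 from 1.16 ± 0.158 to 23.5 ± 6.22 FPKM (4.20), whereas the basement membrane chain Col4a1 changed less, from 7.24 ± 1.27 to 33.6 ± 7.72 FPKM (2.19).

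Enzymes that crosslink and cut the matrix moved with it, with 17 (16 with both scalings) of 22 tested members higher and none lower. Lox, the collagen crosslinking oxidase, rose from 0.0928 ± 0.0361 to 2.47 ± 0.777 FPKM (log2FC 3.70), the gelatinase Mmp2 from 1.01 ± 0.261 to 20.3 ± 6.97 FPKM (4.18) and the protease inhibitor Timp1 from 0.146 ± 0.0793 to 8.71 ± 2.27 FPKM (5.18). Of these 22 genes, 8 passed the filter through HFWT alone. Among 18 matrix glycoproteins and proteoglycans, 16 rose and none fell, with 5 of the 18 admitted through HFWT alone. Spp1 (osteopontin) was at 15.2, 13.8, 14.4, 12.7 and 12.04 FPKM in NDWT and 439, 446, 268, 437 and 302 FPKM in HFWT (log2FC 4.76 ± 0.15, FDR 1.16e-09), and the small proteoglycan Lum went from 2.497 ± 0.199 to 49.03 ± 11.6 FPKM (4.20). Fn1, fibronectin, which hepatocytes also secrete into plasma, did not pass the fold threshold (265 ± 16.03 and 225 ± 31.9 FPKM, log2FC -0.24 ± 0.10), but was called lower after median of ratios scaling (-0.77).

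Markers of stellate cells and myofibroblasts were higher in 13 (11 with both scalings) of 15 tested and lower in none, with a median log2FC of 1.78. The intermediate filament Vim rose from 8.92 ± 1.36 to 95.3 ± 3.88 FPKM (log2FC 3.41), the PDGF receptor Pdgfrb from 1.88 ± 0.413 to 12.9 ± 4.05 FPKM (2.69) and the contractile gene Tagln from 3.03 ± 0.278 to 15.2 ± 4.53 FPKM (2.24). Lrat, the retinol esterifying enzyme of quiescent stellate cells, was at 3.002 ± 0.531 FPKM on control diet and 5.54 ± 2.41 on CDAHFD, overlapped between diets and was not called (FDR 0.0634), but it was called higher without HFWT replicate 4 (log2FC 1.07, FDR 0.000328) and in a fit over all 20 libraries (FDR 0.0203). Of 14 TGF-beta ligands, latent binders and response genes, 13 (11 with both scalings) rose and none fell, with 4 of the 14 admitted through HFWT alone. Tgfb1, the ligand that drives collagen expression, rose from 4.43 ± 0.556 to 17.9 ± 1.94 FPKM (log2FC 1.99), Tgfb3 from 0.349 ± 0.0621 to 3.603 ± 1.09 FPKM (3.01) and the latent binder Ltbp2 from 0.146 ± 0.0361 to 5.17 ± 1.42 FPKM (4.39).

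Macrophage genes rose, apart from several of resident cells. All 15 general macrophage markers, 2 of them admitted through HFWT alone, rose with both scalings at a median log2FC of 2.54. Their summed level was 164 to 239 FPKM in NDWT and 1543 to 2122 in HFWT. Cd68, a lysosomal glycoprotein, rose from 11.1 ± 1.75 to 88.1 ± 14.6 FPKM (log2FC 2.98), Itgam, the integrin chain CD11b, from 0.257 ± 0.0414 to 7.91 ± 0.5201 FPKM (4.49), and Emr1, an adhesion receptor of mature macrophages, from 9.38 ± 1.34 to 23.6 ± 3.54 FPKM (1.32).

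Resident Kupffer cell markers did not share this direction. Of 11, 3 rose, 3 fell and 5 were not called, with a median log2FC of -0.36, and after median of ratios scaling 3 were called higher and 7 lower. Timd4, the phosphatidylserine receptor of long-lived resident macrophages, was at 4.55, 5.85, 5.97, 4.02 and 5.56 FPKM in NDWT and 0.282, 0.342, 0.567, 0.323 and 0.319 in HFWT (log2FC -3.52 ± 0.17, FDR 1.9e-08). Cd163 was at 5.37, 6.03, 8.804, 6.16 and 7.398 FPKM in NDWT and 0.087, 0.154, 0.198, 0.078 and 0.245 FPKM in HFWT, again without overlap. Clec4f, a lectin particular to Kupffer cells, fell from 67.5 ± 7.43 to 29.7 ± 8.79 FPKM (log2FC -1.22), Vsig4 was at 21.3 ± 2.93 FPKM on control diet and 17.1 ± 5.79 on CDAHFD (FDR 0.105) and called lower only after rescaling (-0.89 with median of ratios), and the complement gene C1qb, also made by other macrophages, rose from 53.2 ± 6.16 to 203 ± 35.2 FPKM (1.91).

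The set of lipid-associated macrophage genes had the highest median of all 54 lists, 4.76. Of 15 members, 2 of them admitted through HFWT alone, 13 rose, with both scalings, and 1 fell. Beside Gpnmb, Trem2 and Spp1, the tetraspanin Cd9 rose from 4.69 ± 0.517 to 41.9 ± 2.21 FPKM (log2FC 3.14) and Lpl, lipoprotein lipase, from 3.39 ± 0.789 to 68.2 ± 8.13 FPKM (4.31). The member that fell was Plin2, the lipid droplet coat protein that hepatocytes express as well, from 546 ± 141 to 302 ± 43.3 FPKM (-0.83, FDR 0.000852).

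Lymphocyte, neutrophil and dendritic cell markers were higher at low levels. Of 11 tested T and natural killer cell markers 10 (9 with both scalings) rose, of 7 B and plasma cell markers 7 (4 with both scalings), of 4 neutrophil markers all 4, and of 8 dendritic cell markers 7, and none fell. The filter admitted 3 of those 11 T and natural killer cell markers and 4 of the 8 dendritic cell markers through HFWT alone, and the 4 neutrophil markers tested are 4 of 10 listed. Cd8a, the coreceptor of cytotoxic T cells, was at 0.096, 0.364, 0.359, 0.019 and 0.048 FPKM in NDWT and 1.07, 1.42, 1.78, 1.49 and 0.85 in HFWT (log2FC 2.55 ± 0.40, FDR 0.000138). Cd3e, part of the T cell receptor complex, rose from 0.481 ± 0.463 to 1.92 ± 0.562 FPKM with overlap between diets, since NDWT replicate 2 was at 1.29 FPKM.

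Among the antibody genes, Igha rose from 0.559 ± 0.302 to 6.91 ± 4.45 FPKM (log2FC 3.34) and the B cell receptor chain Cd79a from 0.86 ± 0.353 to 2.43 ± 0.516 FPKM (1.45). Ighm was called with the deposited scaling only (1.02, and 0.50 after median of ratios scaling). The calprotectin genes S100a8 and S100a9 rose from 1.77 ± 0.507 to 12.6 ± 3.99 FPKM (2.77) and from 0.984 ± 0.588 to 8.94 ± 1.48 FPKM (3.27), while Ly6g, the defining neutrophil antigen, was listed at 0 in all 10 libraries. Flt3, the growth factor receptor of dendritic cells, rose from 0.0732 ± 0.0166 to 0.827 ± 0.0672 FPKM (2.42).

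Signals that recruit leukocytes rose with them. Of 25 tested chemokines and receptors (31 listed, 10 of the 25 admitted through HFWT alone), 22 (21 with both scalings) rose and none fell. The monocyte chemoattractant Ccl2 went from 0.688 ± 0.109 to 6.73 ± 0.978 FPKM (log2FC 3.11), its receptor Ccr2 from 0.298 ± 0.0667 to 4.098 ± 0.531 FPKM (3.41), the fractalkine receptor Cx3cr1 from 0.241 ± 0.102 to 10.3 ± 3.22 FPKM (4.94) and Ccl5 from 1.07 ± 0.496 to 8.86 ± 4.196 FPKM (2.91). The interferon-gamma target Cxcl9 was at 3.59 ± 2.14 FPKM on control diet and 5.33 ± 2.17 on CDAHFD (FDR 0.163).

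Cytokine genes gave a weaker picture, with 9 (5 with both scalings) of 10 tested higher, 2 of the 10 having passed the filter through HFWT alone. Tnf rose from 0.254 ± 0.0879 to 2.27 ± 0.616 FPKM (log2FC 2.74), Il1b was at 1.79 ± 0.625 FPKM on control diet and 2.59 ± 0.862 on CDAHFD (FDR 0.0959), and Il6 lay below the filter with at most 3 fragments per library. Il1b was called higher without NDWT replicate 3 (0.66) or HFWT replicate 1 (0.65). Of 21 interferon-stimulated genes 14 (5 with both scalings) rose, where all genes gave 43.8% and 22.2% with both scalings, so that the second share was near the background, and the median of 0.72 lay 0.21 above that of all genes. Irf7, a transcription factor of the interferon response, was at 20.2 ± 3.797 FPKM on control diet and 29.1 ± 10.7 on CDAHFD and not called, whereas the ubiquitin-like gene Ubd rose from 1.26 ± 0.6697 to 44.4 ± 11.5 FPKM (5.17). Without HFWT replicate 5 Irf7 was called higher (0.69). For antigen presentation, 9 (8 with both scalings) of 12 genes rose, including the class II chain H2-Ab1 (53.3 ± 21.1 to 177 ± 43.4 FPKM, 1.80) and its invariant chain Cd74 (98.4 ± 34.8 to 357 ± 103 FPKM, 1.88). B2m, the light chain of class I, did not pass the fold threshold (0.44 ± 0.10), but was called higher after quantile normalization (0.95).

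Biliary and ductular markers had the second highest median, 3.76. Of 12 tested (14 listed), 11 (10 with both scalings) rose and none fell, and 6 of the 12 passed the filter through HFWT alone. Epcam, the adhesion molecule of biliary epithelium, was at 0.526, 0.499, 0.551, 0.514 and 0.565 FPKM in NDWT and 18.2, 19.2, 10.04, 14.8 and 12.8 FPKM in HFWT (log2FC 4.54 ± 0.16, FDR 2.27e-09). Keratin 19 (Krt19) rose from 0.334 ± 0.126 to 6.42 ± 2.55 FPKM (log2FC 3.88), the ductal transcription factor Sox9 from 1.73 ± 0.346 to 12.3 ± 3.06 FPKM (2.75) and the tight junction gene Cldn4 from 0.0532 ± 0.0507 to 4.38 ± 1.33 FPKM (4.88).

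Endothelial and sinusoidal markers moved little. Of 15 tested, 5 (1 with both scalings) rose and none fell, with a median log2FC of 0.29, below that of all genes. With median of ratios scaling 1 was called higher and 4 lower. The hyaluronan receptor Stab2 of sinusoidal cells was at 11.6 ± 0.998 FPKM on control diet and 11.5 ± 1.79 on CDAHFD (log2FC -0.01 ± 0.11), Pecam1 at 4.16 ± 0.286 FPKM on control diet and 5.54 ± 1.09 on CDAHFD, and Cd34, absent from normal sinusoids and present on capillary endothelium, rose from 0.518 ± 0.142 to 6.44 ± 2.04 FPKM (3.38). Of 5 erythroid genes tested 1 fell (Alas2, -0.71), and the haemoglobin chain Hbb-bs was at 59.7 ± 8.55 FPKM on control diet and 56.1 ± 18.7 on CDAHFD. After median of ratios scaling 3 of the 5 were called lower, Hbb-bs among them (-0.66). Of 11 pancreatic acinar genes 1 was tested, and it was called lower only after that scaling (-1.04).

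Genes of cell division and of the fetal liver rose from low levels. Of 27 tested replication and mitosis genes 25 (21 with both scalings) rose, 8 of the 27 having passed the filter through HFWT alone. Mki67, the marker of cycling cells, rose from 0.331 ± 0.0781 to 2.47 ± 0.306 FPKM (log2FC 2.58), Top2a from 0.253 ± 0.098 to 1.55 ± 0.324 FPKM (2.24), the helicase subunit Mcm6 from 1.14 ± 0.255 to 6.73 ± 0.837 FPKM (2.48) and cyclin D1 (Ccnd1), which starts the G1 phase, from 5.67 ± 1.05 to 57.9 ± 14.9 FPKM (3.31). All 6 tested of 9 fetal and tumour-associated genes rose with both scalings, and 2 of the 6 had passed the filter through HFWT alone. Afp, alpha-fetoprotein, went from 0.543 ± 0.196 to 2.53 ± 0.528 FPKM (2.06), the imprinted RNA H19 from 0.0696 ± 0.0631 to 2.76 ± 1.05 FPKM (4.07) and glypican 3 (Gpc3) from 0.438 ± 0.1903 to 1.17 ± 0.4698 FPKM (1.25). Spink3, a protease inhibitor entered in the list as Spink1, was at or under 3 fragments per NDWT library and at 5.24 ± 2.16 FPKM in HFWT, at least 13.8-fold higher.

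Hepatocyte secretory genes went down in part. None of 18 plasma protein genes rose and 7 fell, with a median log2FC of -0.46. After median of ratios scaling 15 of the 18 were called lower, and after quantile normalization the list lay at the median of all genes (0.01 above it). Serpina1c, an alpha-1 antitrypsin gene of a family with near-identical copies, fell from 827 ± 55.7 to 257 ± 45.3 FPKM (-1.70), while transthyretin (Ttr) and Apoa1 did not pass the fold threshold (-0.35 and -0.24). Of 17 tested Mup genes 16 fell. Mup3 was at 5631, 6048, 6079, 6096 and 6378 FPKM in NDWT and 473, 362, 562, 439 and 414 in HFWT (log2FC -3.76 ± 0.11, FDR 8.76e-10), and the exception, Mup20, was at 4522 ± 804 FPKM on control diet and 3423 ± 986 on CDAHFD (FDR 0.0714). After median of ratios scaling Mup20 was also called lower (-0.96).

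The acute phase proteins split, with 5 of 15 higher and 2 lower with the deposited values and 5 lower after median of ratios scaling. The share of higher genes was under the 43.8% of all genes, though all 5 held with both scalings (22.2% of all genes). Lcn2 (lipocalin 2) rose from 3.97 ± 2.58 to 108 ± 26.3 FPKM (log2FC 4.87) and Saa3, made by macrophages as well, from 6.98 ± 2.85 to 60.3 ± 12.1 FPKM (3.15), whereas Saa1, of hepatocytes, was at 287 ± 145 FPKM on control diet and 269 ± 73.8 on CDAHFD (FDR 0.979). The iron hormone hepcidin (Hamp) was at 1141 ± 467 FPKM on control diet and 876 ± 371 on CDAHFD (FDR 0.283), and Fgl1 fell from 108 ± 38 to 40.4 ± 12.6 FPKM (-1.42). Hamp was called lower after median of ratios scaling (-0.92).

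Genes expressed more in male than in female liver fell. Of 14 male-biased genes 11 fell and none rose, with a median log2FC of -2.12, and all 14 were called lower after median of ratios scaling. Elovl3, a fatty acid elongase, was at 223, 259, 146, 223 and 139.7 FPKM in NDWT and 28.4, 9.82, 13.3, 7.49 and 7.996 in HFWT (log2FC -4.02 ± 0.33, FDR 8.51e-07). The oxysterol hydroxylase Cyp7b1 fell from 121 ± 24.2 to 17.6 ± 2.84 FPKM (log2FC -2.76), the anion transporter Slco1a1 from 78.5 ± 9.97 to 10.2 ± 3 FPKM (-2.98) and the steroid hydroxylase Cyp2d9 from 894 ± 67.1 to 229 ± 69.05 FPKM (-2.02).

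Of 17 female-biased genes only 5 passed the filter, of which 3 rose and 2 fell, so this list gives no single direction, and its median changed sign with the filter. The filter admitted 2 of the 5, Cyp2a4 among them, through HFWT alone. Cyp2a4 was at 0.1, 0.035, 0.098, 0 and 0.058 FPKM in NDWT and 2.21, 7.05, 4.05, 9.14 and 10.1 in HFWT (log2FC 5.24 ± 0.39, FDR 3.6e-07), Cyp2b9 rose from 0.185 ± 0.148 to 8.17 ± 6.54 FPKM (4.49 ± 0.70) and Cyp17a1 fell from 8.89 ± 5.14 to 1.28 ± 0.711 FPKM (-2.60). Pulses of growth hormone set this sex pattern in mice. Its receptor Ghr fell from 54.9 ± 4.904 to 28.5 ± 3.91 FPKM (-0.95), Igf1 did not pass the fold threshold (-0.51 ± 0.13), the feedback gene Socs2 varied widely (3.46 ± 3.12 and 4.37 ± 2.35 FPKM), and Igfbp2 rose from 421 ± 104 to 903 ± 193 FPKM (1.12). Igf1 was called lower after median of ratios scaling (-1.04), quantile normalization (-0.67) and rescaling outside the 50 most abundant genes (-0.65), and without HFWT replicate 5 (-0.583).

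Transcription factors that define the hepatocyte stayed largely outside the calls. Of 19 tested 2 fell and none rose, although 11 were called lower after median of ratios scaling. Hnf4a was at 164 ± 22.8 FPKM on control diet and 148 ± 12.4 on CDAHFD and Cebpa at 308 ± 78.7 FPKM on control diet and 227 ± 17.9 on CDAHFD, and neither was a DEG with the deposited values. Both were called lower after median of ratios scaling (-0.67 and -0.94). Ppara, the nuclear receptor that switches on fatty acid oxidation, fell from 76.6 ± 11.99 to 32.9 ± 6.05 FPKM (log2FC -1.22 ± 0.14, FDR 1.48e-05).

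Zonation genes mark the ends of the liver lobule, and their directions differed between the ends. The median log2FC was 0.87 for the pericentral and -0.62 for the periportal list, and 0.34 and -1.15 after median of ratios scaling. Of 14 pericentral genes 11 (4 with both scalings) rose and 1 fell, and of 10 periportal genes 1 rose and 5 fell. All genes gave 43.8% higher, 22.2% with both scalings, and 4.70% lower, so the pericentral share with both scalings was not far above the background. After median of ratios scaling 4 pericentral genes were called higher and 3 lower, and 1 periportal gene higher and 8 lower. Glutamine synthetase (Glul), restricted to cells around the central vein, rose from 336 ± 36.3 to 684 ± 166 FPKM with the deposited scaling only (log2FC 1.00, and 0.47 after median of ratios scaling). Slc13a3, a dicarboxylate transporter, rose from 3.78 ± 0.673 to 15.6 ± 3.33 FPKM (2.01), and Oat, an ornithine enzyme of the same cells, fell from 574 ± 120.5 to 349.8 ± 44.1 FPKM (-0.70). On the periportal side Cyp2f2 fell from 389.5 ± 39.3 to 151 ± 29.5 FPKM (-1.38) and histidase (Hal) from 65.8 ± 10.4 to 39.4 ± 11.8 FPKM (-0.78), whereas Aldh1b1 rose from 19.7 ± 3.05 to 66.3 ± 13.01 FPKM (1.74).

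Genes of choline use were mostly lower or not called. Of 27 tested genes for choline, phosphatidylcholine and the methionine cycle, 7 fell, 2 rose with the deposited scaling only and 18 were not called. After median of ratios scaling none was called higher and 17 lower. Mat1a, the hepatocyte enzyme that makes S-adenosylmethionine, was at 1829, 1311, 1845, 2349 and 2049 FPKM in NDWT and 542, 846, 769, 904 and 931 in HFWT, without overlap (log2FC -1.23 ± 0.18, FDR 6.89e-05). Gnmt, which uses up surplus S-adenosylmethionine, fell from 993 ± 134 to 566 ± 59.8 FPKM (log2FC -0.81). Pemt, which makes phosphatidylcholine without dietary choline, was at 109 ± 9.86 FPKM on control diet and 139 ± 15.1 on CDAHFD (0.35 ± 0.09), and Bhmt, which remethylates homocysteine with choline-derived betaine, at 644 ± 137 FPKM on control diet and 460.2 ± 118 on CDAHFD (-0.50 ± 0.20), and neither passed the fold threshold with the deposited values. Bhmt was called lower after median of ratios scaling (-1.03). The 2 that rose included methionine synthase (Mtr, 0.75), whose log2FC was -0.07 after quantile normalization.

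Genes for the export and storage of triglyceride were lower or not called, with 1 exception. None of 13 genes for VLDL assembly and apolipoproteins rose and 5 fell, and 11 were called lower after median of ratios scaling. Mttp, which loads lipid onto apolipoprotein B, was at 116, 107, 117, 122 and 112 FPKM in NDWT and 50.6, 52.7, 50.5, 48.3 and 50.96 in HFWT. Its spread within each diet was small, and the difference of -1.18 ± 0.06 had an FDR of 1.58e-08. Apob, the structural protein of VLDL, was at 583 ± 89.5 FPKM on control diet and 449 ± 58.95 on CDAHFD (-0.37, not called, and -0.90, called lower, after median of ratios scaling). Of 15 tested lipid droplet proteins and lipases 1 rose and 6 fell, and 10 were called lower after that scaling. G0s2, an inhibitor of triglyceride lipolysis, fell from 415 ± 129 to 62.9 ± 14.8 FPKM (log2FC -2.70), Plin3 rose from 22.4 ± 3.97 to 49.5 ± 8.15 FPKM (1.14), and Cidec, which enlarges droplets, was at 28.2 ± 13.5 FPKM on control diet and 25.7 ± 9.64 on CDAHFD (FDR 0.921).

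Fatty acid synthesis genes had no common direction. Of 20, 5 (2 with both scalings) rose and 7 fell, and 9 were called lower after median of ratios scaling. The shares that rose were under those of all genes (43.8%, and 22.2% with both scalings). Against the fall of Scd1, its relative Scd2 rose from 0.946 ± 0.112 to 7.45 ± 1.15 FPKM (log2FC 2.84). Fasn, fatty acid synthase, rose from 11.3 ± 3.09 to 23.4 ± 11.7 FPKM with the deposited scaling only (0.97, and 0.44 after median of ratios scaling), and Srebf1, the regulator of lipogenesis, rose from 8.46 ± 1.23 to 24.2 ± 4.56 FPKM (FDR 2.07e-06).

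Most cholesterol synthesis genes rose. Of 25 genes 19 (16 with both scalings) rose and 3 fell, and the diets did not overlap for 24 of the 25, against 57.5% of all genes. Squalene epoxidase (Sqle) was at 0.767, 1.74, 1.59, 0.851 and 0.804 FPKM in NDWT and 19.2, 14.98, 10.1, 10.7 and 9.83 in HFWT (log2FC 3.41 ± 0.26, FDR 4.74e-07). Hmgcs1, the cytosolic synthase of the pathway, rose from 30.8 ± 4.37 to 114 ± 34.3 FPKM (log2FC 1.86).

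SREBP2, the regulator of this pathway, binds sterol response elements. The letters TCACNCCAC were searched on both strands of the windows from 250 bases before to 50 after the start site in RefSeq (GRCm38.p6). They occurred in 408 of 32851 windows (1.24%) and, counted per gene, in 1 of the 17 list genes with a window, Hmgcs1. Of the 13 list genes with a window that rose, Hmgcs1 alone held the letters. Its window, at chr13:119690101-119690400 on the plus strand, is shown as the only one with a match. The match is in capitals, 137 bases before the start site.
Hmgcs1: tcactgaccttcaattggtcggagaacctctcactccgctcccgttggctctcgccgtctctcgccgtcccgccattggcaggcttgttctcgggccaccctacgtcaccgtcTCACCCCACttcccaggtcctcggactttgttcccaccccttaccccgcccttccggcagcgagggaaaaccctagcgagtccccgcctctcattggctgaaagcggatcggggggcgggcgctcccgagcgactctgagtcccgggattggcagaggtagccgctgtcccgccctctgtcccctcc

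Genes that oxidise fatty acids fell, and none of them rose. Of 23 mitochondrial oxidation genes 13 fell and none rose, and 21 were called lower after median of ratios scaling. Of all genes 4.70% were called lower, and 2057 of 13587 after that scaling. Of 18 peroxisomal and omega oxidation genes 15 fell and none rose, with a median log2FC of -1.23. These members are targets of PPAR-alpha in mouse liver to a large extent. Cyp4a14, an omega hydroxylase, was at 1606, 1040.0, 1501, 2289 and 1540.0 FPKM in NDWT and 61.7, 584, 319, 153 and 464 in HFWT, a wide spread without overlap (log2FC -2.68 ± 0.52, FDR 0.000674). Cyp4a10 fell from 1667 ± 352 to 285 ± 149 FPKM (log2FC -2.76) and Ehhadh from 825 ± 244 to 225 ± 103 FPKM (-1.96).

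In the mitochondrial list the acyl-CoA synthetase Acsl1 fell from 390.0 ± 53.3 to 77.5 ± 18.7 FPKM (log2FC -2.36), the carnitine transferase Cpt2 from 118 ± 7.93 to 53.6 ± 6.67 FPKM (-1.14) and the dehydrogenase Acadm from 229 ± 18.9 to 141 ± 20.8 FPKM (-0.71). Cpt1a, the entry step, lay at the fold threshold (-0.57 ± 0.13, FDR 0.00158) and was not called. It was called lower after median of ratios scaling (-1.10) and after rescaling outside the 50 most abundant genes (-0.71). The same held without NDWT replicate 2 (-0.65), HFWT replicate 2 (-0.65) or HFWT replicate 4 (-0.60). Of 13 tested uptake and binding genes 6 (5 with both scalings) rose and 5 fell. All genes gave 43.8% higher, 22.2% with both scalings, and 4.70% lower. The share of higher genes with the deposited values was thus near the background. Fabp1, the fatty acid binding protein of hepatocytes, was at 7107, 7177, 6505, 5806 and 6392 FPKM in NDWT and 1787, 2896, 2047, 2653 and 2609.6 in HFWT (log2FC -1.48 ± 0.14, FDR 2.35e-06). Fabp4, of macrophages and fat cells, rose from 8.31 ± 1.85 to 29.7 ± 3.66 FPKM (1.85) and the fatty acid translocase Cd36 from 28.02 ± 11.7 to 102 ± 17.3 FPKM (1.95).

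Glucose genes moved both ways, and genes of amino acid breakdown mostly down. Of 17 glucose genes 8 (6 with both scalings) rose and 5 fell, where all genes gave 43.8% higher and 22.2% with both scalings. The share of higher genes with the deposited values was thus near the background, and the list median lay 0.23 below that of all genes. After median of ratios scaling 6 were called higher and 6 lower. The gluconeogenic enzymes G6pc and Pck1 fell from 178 ± 60.02 to 54.6 ± 12.8 FPKM (log2FC -1.66) and from 950.3 ± 308 to 514 ± 109 FPKM (-0.85). Pkm, the pyruvate kinase of cells other than hepatocytes, rose from 11.3 ± 1.71 to 97.1 ± 13.4 FPKM (3.09). Of 27 genes for the urea cycle and amino acid breakdown 12 fell and 1 rose, and 22 were called lower after median of ratios scaling. The tyrosine enzyme Hpd fell from 1077 ± 150.3 to 527 ± 47.6 FPKM (-1.02), while proline dehydrogenase (Prodh) rose from 23.7 ± 0.434 to 53.2 ± 14.02 FPKM (1.12). The urea cycle enzymes Cps1 and Ass1 were at 539 ± 195 FPKM on control diet and 466 ± 51.02 on CDAHFD and at 741 ± 141 FPKM on control diet and 738 ± 104 on CDAHFD, with log2FC of -0.15 and 0.00, and Cps1 was called lower after median of ratios scaling (-0.68).

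Genes of bile acid and drug metabolism had no common direction. Of 17 bile acid genes tested 4 (3 with both scalings) rose and 4 fell, and 8 were called lower after median of ratios scaling. The shares that rose were under those of all genes (43.8%, and 22.2% with both scalings). Cyp8b1, the 12-alpha hydroxylase, fell from 458 ± 98.2 to 96.96 ± 31.7 FPKM (log2FC -2.28) and the uptake transporter Slc10a1 from 289 ± 14.6 to 117 ± 9.47 FPKM (-1.30). Cyp7a1, the rate-limiting enzyme of bile acid synthesis, rose from 10.1 ± 8.05 to 26.6 ± 10.3 FPKM with overlap and with the deposited scaling only (1.60 ± 0.44). The basolateral exporter Slc51b rose from 0.222 ± 0.228 to 3.096 ± 1.13 FPKM (3.62) and the canalicular pump Abcb11 was at 74.8 ± 7.43 FPKM on control diet and 94.4 ± 25.1 on CDAHFD (FDR 0.0743). Of 28 tested genes of cytochrome P450 families 1 to 3, 10 (6 with both scalings) rose, a share no higher than that of all genes (43.8%, and 22.2% with both scalings), and 8 fell. The filter admitted 4 of the 28 through HFWT alone. With median of ratios scaling 15 were called lower. Cyp3a11 rose from 264 ± 40.8 to 939 ± 154 FPKM (1.83), Cyp2c29 fell from 106 ± 17.9 to 13.6 ± 9.06 FPKM (-3.13), and Cyp2e1 did not pass the fold threshold (-0.38 ± 0.12) but was called lower after median of ratios scaling (-0.91).

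Glutathione transferases and other targets of the oxidative stress regulator NRF2 rose in 19 (13 with both scalings) of 26 and fell in 1, the malic enzyme Me1 (37.7 ± 3.19 to 8.92 ± 2.47 FPKM, log2FC -2.10), which also serves lipogenesis. Gstm3 was at 1.696, 2.37, 2.02, 1.05 and 2.41 FPKM in NDWT and 333, 149, 168, 166 and 85.6 in HFWT (log2FC 6.41 ± 0.32, FDR 2.1e-08). Transferases of 1 class are similar in sequence, so single members carry the same doubt as Mup genes. Nqo1, a quinone reductase, rose from 1.51 ± 0.4203 to 13.5 ± 1.804 FPKM (3.10), haem oxygenase (Hmox1) from 15.8 ± 1.54 to 51.99 ± 5.13 FPKM (1.71), sulfiredoxin (Srxn1) from 15.1 ± 1.68 to 60.7 ± 8.42 FPKM (2.00) and UDP-glucose dehydrogenase (Ugdh) from 12.96 ± 1.38 to 34.04 ± 3.98 FPKM (1.39).

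NRF2 binds antioxidant response elements. The letters TGACNNNGC, on either strand of the same RefSeq windows, occurred in 4071 of 32851 windows (12.4%). They occurred in at least 1 window of 9 of 21 list genes with a window, 6 of them among the 16 that rose. The first count is per window and the second per gene, and a list gene had up to 3 windows, so the 2 shares are not alike. The windows of Srxn1 (chr2:152105274-152105573, plus strand) and Ugdh (chr5:65435793-65436092, minus strand) are shown as the 2 called genes of lowest FDR with a match, in capitals. Srxn1 has 1 match, on the opposite strand, and Ugdh has 2, 1 on each strand.
Srxn1: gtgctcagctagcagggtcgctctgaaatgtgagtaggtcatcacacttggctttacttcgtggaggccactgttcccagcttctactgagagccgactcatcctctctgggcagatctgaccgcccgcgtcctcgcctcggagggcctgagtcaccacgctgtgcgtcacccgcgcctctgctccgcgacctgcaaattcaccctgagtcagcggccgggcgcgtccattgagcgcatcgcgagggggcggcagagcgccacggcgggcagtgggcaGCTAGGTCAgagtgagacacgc
Ugdh: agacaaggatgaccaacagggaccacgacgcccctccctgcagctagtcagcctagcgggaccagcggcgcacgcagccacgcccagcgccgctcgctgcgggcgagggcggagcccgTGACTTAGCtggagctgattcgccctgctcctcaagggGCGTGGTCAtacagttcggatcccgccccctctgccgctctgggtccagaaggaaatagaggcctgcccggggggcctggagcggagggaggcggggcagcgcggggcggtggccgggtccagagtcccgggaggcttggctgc

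Other stress programmes differed from each other. Of 13 tested p53 targets 12 (7 with both scalings) rose and none fell. The cell cycle inhibitor Cdkn1a went from 2.92 ± 1.43 to 19.4 ± 4.64 FPKM (log2FC 2.82), Phlda3 from 0.641 ± 0.1598 to 9.98 ± 0.794 FPKM (3.79), and Mdm2 was called with the deposited scaling only (0.83, and 0.31). Of 18 endoplasmic reticulum stress and ATF4 targets 5 (3 with both scalings) rose and 4 fell, and 8 were called lower after median of ratios scaling. The shares that rose were under those of all genes (43.8%, and 22.2% with both scalings). Atf3 rose from 0.909 ± 0.274 to 27.3 ± 4.11 FPKM (4.79) and the stress hormone Gdf15 from 6.297 ± 2.45 to 21.7 ± 5.897 FPKM (1.84), whereas Fgf21 was at 23.4 ± 5.52 FPKM on control diet and 31.6 ± 13.9 on CDAHFD (FDR 0.293). The chaperone Hspa5 was at 394 ± 149 FPKM on control diet and 246 ± 94.01 on CDAHFD with overlap, and its call as lower (-0.68, FDR 0.0327) was lost with no filter, with quantile normalization and without NDWT replicate 3 or HFWT replicate 3, 4 or 5 (log2FC -0.48, -0.61, -0.64 and -0.57).

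All 14 tested immediate early and AP-1 genes were higher, 12 with both scalings, and 2 of the 14 had passed the filter through HFWT alone. Fos rose from 0.571 ± 0.2598 to 5.205 ± 2.77 FPKM (log2FC 2.97), Jun from 15.8 ± 6.52 to 38.3 ± 13.04 FPKM (1.34) and Egr1 from 3.21 ± 0.591 to 11.1 ± 4.65 FPKM (1.68). Clock genes were called higher in 6 (3 with both scalings) of 17 and lower in 2, shares of higher genes under those of all genes (43.8%, and 22.2% with both scalings). With median of ratios scaling 3 were higher and 6 lower. The core factor Arntl was at 2.68 ± 0.274 FPKM on control diet and 4.31 ± 2.04 on CDAHFD and its output Dbp at 17.96 ± 5.74 FPKM on control diet and 22.2 ± 12.6 on CDAHFD, neither called, while Nfil3 fell from 20.95 ± 3.74 to 8.596 ± 3.18 FPKM (-1.33) and Per1 rose from 2.24 ± 1.06 to 6.56 ± 1.72 FPKM (1.60). Arntl was called higher without HFWT replicate 4 (0.69) or HFWT replicate 5 (0.73). Per2 was at the thresholds (0.59, FDR 0.0424), and its call was lost with all 3 other scalings, with no filter, with a pseudocount of 1 and without NDWT replicate 1, 2 or 4 or HFWT replicate 2, 4 or 5. Its log2FC was -0.10 after quantile normalization.

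Housekeeping groups show where the scaling decides a direction. None of 46 nuclear respiratory chain genes was called with the deposited values (median -0.15), and 37 were called lower after median of ratios scaling. Sdha, a subunit of complex II, was at 134 ± 1.84 FPKM on control diet and 119 ± 5.77 on CDAHFD (-0.16, and -0.69). Of 75 cytosolic ribosomal protein genes 29 were higher with the deposited values and none after median of ratios scaling. With the deposited values, which carry the shift of all genes, the diets did not overlap for 72 of the 75, against 57.5% of all genes. The median of the 75 was 0.52, only 0.0079 above that of all genes, so this lack of overlap does not show a rise beyond the scaling. Rplp0 was at 254 ± 24.2 FPKM on control diet and 368 ± 31.7 on CDAHFD (0.54, and 0.01). Of 31 proteasome subunits 1 was higher with the deposited values, and none higher and 5 lower after median of ratios scaling. That lower share was near the one of all genes, 2057 of 13587. Among 13 genes of the mitochondrial genome, mt-Cytb and mt-Nd2 (-0.70) were called lower and none higher, while 12 of the 13 were called lower after median of ratios scaling. Both calls were lost with quantile normalization (log2FC -0.31 and -0.27) and without HFWT replicate 1 (-0.51 and -0.56).

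Most cytoskeletal genes, and some lysosomal genes, went beyond this common shift. Of 20 lysosomal genes 13 (8 with both scalings) rose, where all genes gave 43.8% and 22.2% with both scalings. The list median lay 0.27 above that of all genes, and after median of ratios scaling 8 were called higher and 3 lower. The lower share was near that of all genes after this scaling, 2057 of 13587. The cathepsins named next are also members of the macrophage lists. Cathepsin S (Ctss), a protease of antigen-presenting cells, was at 27.8, 34.6, 41.4, 24.2 and 33.2 FPKM in NDWT and 354, 363, 423, 353 and 349.8 in HFWT (log2FC 3.53 ± 0.13, FDR 2.64e-09), and cathepsins D (Ctsd) and B (Ctsb) rose from 163 ± 9.63 to 681 ± 71.6 FPKM (2.06) and from 137 ± 5.22 to 382 ± 30.9 FPKM (1.48). Of 26 cytoskeleton, annexin and S100 genes 25 (23 with both scalings) rose. The calcium-binding protein S100a4 went from 0.515 ± 0.205 to 17.6 ± 3.74 FPKM (4.91), S100a6 from 0.952 ± 0.134 to 18.4 ± 2.65 FPKM (4.14), the annexin Anxa2 from 3.65 ± 1.03 to 43.8 ± 5.08 FPKM (3.59) and beta-actin (Actb), often used as a reference gene, from 188 ± 43.1 to 496 ± 54.5 FPKM (1.42).

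Whether the diet response differed with genotype was tested by an interaction term. In a fit over all 20 libraries, 105 of 13587 genes (0.773%) had a diet by genotype interaction at the same thresholds. The count turned on single libraries: it was 187 without control replicate 2 labelled TSP-1 null (NDKO), 67 and 47 without NDWT replicates 5 and 3, 52 and 60 without HFWT replicates 3 and 4, 49 and 55 without NDKO replicates 1 and 4, and 42, 58 and 47 without replicates 1, 2 and 4 labelled TSP-1 null on CDAHFD. The 3 genes of lowest FDR whose log2FC on CDAHFD was more positive in WT livers than in livers labelled TSP-1 null were Thbs1 itself (by 2.66), the cold-inducible RNA-binding protein Cirbp (by 1.16) and 2410131K14Rik (by 1.15). Those with a more negative log2FC in WT were Klhdc7a (-1.62), the receptor Epha1 (-0.70) and the progesterone receptor Paqr7 (-1.54). Cirbp rose from 5.89 ± 0.8596 to 18.9 ± 1.81 FPKM in WT and was at 12.8 ± 1.797 and 18.5 ± 2.92 FPKM in the libraries labelled TSP-1 null on control diet and CDAHFD. All 30 genes at the extremes of the WT response were also called in the same direction between the diets in the libraries labelled TSP-1 null, which are separate mice. Such agreement was not counted over all genes, so it is not shown to be particular to the extremes. The paper reported that the diet profiles of both genotypes were very similar.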

How the data were processed

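Poly(A) RNA-seq libraries of 20 mouse livers in 4 groups of 5 were used through 1 deposited table of FPKM per gene. Per the labels' processing notes and the methods, the authors aligned reads with STAR 2.5.2 and counted them with featureCounts of Subread 1.5.1. The notes list GRCh38, but the gene coordinates in the deposited table are of the mouse build GRCm38. Fragment numbers were recovered from the FPKM steps and used for depth, shares of fragments, floors and the comparison of libraries only.

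Genes above 0.5 FPKM in at least 5 of the 10 WT libraries were tested on log2(FPKM + 0.1), so fold changes of low genes are understated. The fit used limma 3.58.1 (empirical Bayes with trend, R 4.3.3) on the 10 WT libraries, and all 20 for the interaction. The script was tested on simulated data. Shares were compared by two-sided exact permutation tests (scipy 1.17.1). Floors (3 fragments) cover counting error only, since the libraries carried no molecular identifiers. SDs and standard errors were taken over mice.

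Members and the 54 gene lists were chosen with earlier results of these data known. Named genes were key genes of those lists, the 15 highest and 15 lowest log2FC among genes called with both scalings without overlap, the extreme called member of each list in each direction, the 10 most abundant genes, and the 3 interaction genes of lowest FDR in each direction. Some genes under this rule are not reported here. Of 1047 list entries 1 matched no gene. The collagen, glutathione transferase and NRF2, p53, clock and cytoskeletal lists each held 1 tested member admitted through HFWT alone. Alternatives were other pseudocounts, filters and scalings, other variance settings, a replicate block, no fold threshold and each library left out.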

Additional observations from a re-analysis of the deposited data

Results flagged for a closer look

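In a group of 5 mice a library was noted when its gap to the nearest other exceeded 0.71 of the group's range, which chance gives for about 1 in 20 groups. Of 516 groups looked at, 31 held such a library, 8 of them HFWT replicate 1 and 3 HFWT replicate 5. Values below are in FPKM, with the range of the other 4 libraries of the group.

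HFWT replicate 5 had 5.56% of fragments on the 4 RNAs Gm26924, Gm23935, Rn7sk and Rpph1, against 0.573% to 0.825% in the other HFWT libraries. Its summed level of inflammatory cytokines was 39.9 (49.6 to 52.2 in the others), and its Tgfb1 was 14.5 (18.2 to 19.4). HFWT replicate 4 had the highest summed level of B and plasma cell markers, 135 (44.0 to 59.1).

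NDWT replicate 1 stood apart for Mmp7 at 0.121 (0 in the others), Spink3 at 0.204 (0 in the others) and Nfil3 at 27.4 (18.1 to 20.4). HFWT replicate 1 stood apart for Pdgfrb at 19.9 (9.71 to 12.4), Cd9 at 45.9 (40.4 to 41.3), Cx3cr1 at 16 (8.52 to 9.22), Alb at 16870.4 (23588 to 25879.8), Elovl3 at 28.4 (7.49 to 13.3), Hsd3b5 at 6.64 (0.265 to 2.09), Fasn at 43.7 (15.1 to 23.2) and Abcb11 at 139 (79.3 to 85.2). HFWT replicate 3 stood apart for Timd4 at 0.567 (0.282 to 0.342), Cyp17a1 at 2.53 (0.798 to 1.11) and Ctss at 423 (349.8 to 363). NDWT replicate 2 stood apart for Cd3e at 1.29 (0.156 to 0.384) and Cpt1a at 204 (259.7 to 273). HFWT replicate 4 stood apart for Igha at 14.6 (3.69 to 6.602), Spink3 at 9.03 (3.77 to 4.91) and Fos at 10.1 (3.81 to 4.17). NDWT replicate 4 stood apart for S100a8 at 0.892 (1.86 to 2.19), Hnf4a at 203 (147 to 163) and Igf1 at 63.9 (54.6 to 56.4). NDWT replicate 3 stood apart for Lcn2 at 8.57 (2.35 to 3.03) and Hspa5 at 655 (273 to 358). HFWT replicate 2 stood apart for G0s2 at 88.9 (53.1 to 60.5) and Cyp2c29 at 29.6 (7.203 to 11.6). NDWT replicate 5 stood apart for Cyp7a1 at 24.1 (3.28 to 8.22).

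For 11 named genes the log2FC differed with genotype by the interaction test of limma over 20 libraries. The WT response less that of libraries labelled TSP-1 null was positive for Thbs1 (2.66), Trem2 (1.28), Meg3 (1.76), Oat (1.10), Cdkn1a (2.06), Cirbp (1.16) and 2410131K14Rik (1.15), and negative for Fabp1 (-1.17), Klhdc7a (-1.62), Epha1 (-0.70) and Paqr7 (-1.54), in log2 units.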

How the results depend on the processing

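The direction of the split between higher and lower genes depended on the scaling. Median of ratios scaling gave 3015 genes higher and 2057 lower and a median log2FC of 0.000514, and quantile normalization gave 2387, 2393 and -0.0941. The median was 0.40 with a pseudocount of 1, 0.42 with no filter on low values and 0.38 after rescaling outside the 50 most abundant genes. Without a fold threshold 9930 genes passed, 1213 of them lower. With 1 library left out, called genes ranged from 6377 to 6790.

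Relative to the median of all genes, the female-biased list changed sign when FPKM above 1 in at least 5 libraries (-0.63), a mean FPKM above 0.5 (-0.66) or no filter (-0.0739) was asked, and the fatty acid uptake (0.12) and clock (0.0044) lists with no filter. Under quantile normalization the lists for hepatocyte plasma proteins (0.0120), acute phase proteins (0.33), fatty acid uptake (0.0126), glucose metabolism (0.0161), bile acids (0.0638) and proteasome subunits (0.0908) changed sign, as did Mtr (-0.0672), Per2 (-0.10) and 2410131K14Rik (-0.0823). The cause was not tested. The ribosomal list (0.0079) lay at -0.0306 to -0.0072 with a pseudocount of 0.01, with FPKM above 0.5 in at least 1 library, with median of ratios scaling and without NDWT replicate 3 or HFWT replicate 4. The growth hormone list changed sign in 4 of the leave-outs (-0.16 to -0.0382). With 1 library left out, 52 to 54 of 54 lists kept their sign, and 189 to 195 of 195 named genes kept direction and call.

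The difference in the percent on the 10 most abundant genes ranged from -1.72 to -0.17 with 1 library left out, and passed the threshold without HFWT replicate 5 (adjusted p = 0.0363, exact permutation test). For mitochondrially encoded genes it ranged from -1.11 to -0.753, and 6 of 10 leave-outs ended the call (adjusted p = 0.0544, exact permutation test). The number of interaction genes ranged from 42 to 187.

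Replicate numbers did not pair the libraries, since correlations of deviations between same-numbered libraries were 0.065, 0.040, 0.046, -0.059 and 0.066, and not every library correlated best with its own number. With the replicate number as a block 6609 genes were called, 6552 of them shared with the 6592.

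Libraries of 16689108 to 23276322 fragments limit genes near the filter, and a gene at 0 is known only to lie below 3 fragments per library.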
